A study of Mus musculus with 16 samples.

Results

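Frame-shifting skipped exons are cassette exons whose length is not a multiple of 3, so that leaving one out of a coding sequence moves the reading frame of everything after it. They were taken from the skipped exon events of 3 deposited rMATS tables as all events whose exon was longer than 27 bases and not a multiple of 3. In the table of P635L Ctr against WT Ctr, 18013 of 44455 events of all 5 splicing types met this rule. Of these, 14037 events, in 12075 distinct exons and 6131 genes, averaged 10 or more junction reads a library in each of the groups compared, and the results below are about them. The tables of P635L Tnpo3 against WT Ctr and of WT Tnpo3 against WT Ctr held 18032 and 16324 such events, of which 14071 and 12649 had that many reads. A comparison of P635L Tnpo3 with P635L Ctr was made from the events that the first 2 tables share, 13838 of them frame-shifting and 11439 with enough reads.

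The libraries came from left ventricles of Bl6J mice of both sexes, either wild type (WT) or carrying on both chromosomes the missense allele P635L of RBM20, a splicing regulator of muscle. At 4 weeks of age every mouse received 1e12 vector genomes of AAV9, a virus that reaches heart muscle, into the tail vein. In the groups WT Tnpo3 and P635L Tnpo3 it held the cDNA of Tnpo3, whose product carries splicing proteins with serine and arginine repeats into the nucleus. In the groups WT Ctr and P635L Ctr it held a CAG promoter construct for Cre recombinase and eGFP. Tissue was taken 12 weeks later at 16 weeks of age, with 4 mice per group and 16 in all. No group went without virus, the controls too express a recombinase and a fluorescent protein, and the labels give neither the promoter of the Tnpo3 construct nor the sex of each mouse.

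A cassette exon is joined to both neighbours or passed over by the spliceosome. Its inclusion level, from 0 to 1, is the estimated share of transcripts that keep it, corrected for the number of read positions per form. The correction counts 2 joins for an exon that is kept. In the Tpm2 and Ldb3 events described here, 1 neighbour is itself an alternative exon that is seldom joined to it. The level then understates how often the exon was kept, so differences of uncorrected shares are given too. When the exon is coding and its length leaves a remainder of 1 or 2 on division by 3, the transcript without it usually meets a stop codon early, and a stop well ahead of the last exon junction is known to mark an mRNA for nonsense-mediated decay. RBM20 acts in heart muscle mainly by repressing exons of sarcomere and calcium-handling genes. Alternative exons of muscle genes can also come in pairs or groups that replace each other without a change of frame. The tropomyosin gene Tpm2 and the Z-disc gene Ldb3 described here have such exons. Of these genes only Ldb3 is in the list of RBM20 targets used below, and whether RBM20 acts on these exons was not tested.

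The exons of 2 muscle genes that the results turn on are shown first. Tpm2 encodes beta-tropomyosin, a coiled-coil protein along the actin filament, and has 2 alternative exons of 76 bases each. In GENCODE M21 (GRCm38) they lie on the minus strand of chromosome 4, the first at chr4:43519003-43519078 and the second at chr4:43518644-43518719, both coding. They agree at 41 positions and differ at 35, and capitals mark the positions that differ.
Tpm2 first exon: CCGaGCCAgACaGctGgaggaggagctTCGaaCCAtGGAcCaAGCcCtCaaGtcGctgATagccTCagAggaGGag
Tpm2 second exon: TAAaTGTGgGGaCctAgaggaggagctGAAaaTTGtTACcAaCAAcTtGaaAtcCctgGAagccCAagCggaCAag

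Ldb3 encodes a PDZ and LIM domain protein of the Z-disc, and heart and skeletal muscle isoforms of it are known to differ in the stretch described here. A coding exon of 359 bases (GRCm38 chr14:34576986-34577344, minus strand) is followed in the gene by 3 exons of 23, 204 and 15 bases, which add up to 242 bases. The 359-base exon and the 3 exons together leave the same remainder of 2, so that replacing the one by the others keeps the frame. The first 150 bases of the exon (chr14:34577195-34577344) are given because it changed both with the mutation and, in P635L hearts, with the virus.
Ldb3 359-base exon, first 150 bases: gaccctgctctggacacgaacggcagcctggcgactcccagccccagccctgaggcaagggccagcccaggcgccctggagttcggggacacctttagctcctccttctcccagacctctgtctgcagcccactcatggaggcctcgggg

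For other exons no such partner was looked for, and leaving them alone out of the annotated transcript shifts the frame. For these the join made without the exon is shown in whole codons from the upstream exon to the first stop, which is in capitals. The 134-base exon of Gak, a kinase of clathrin uncoating (GRCm38 chr5:108596755-108596888, exon 15 of 28), is the shortest case, with 18 bases of the upstream exon followed by 9 bases to the stop. In the join of Slc6a6, the taurine transporter (exon of 125 bases, chr6:91741178-91741302, exon 9 of 15), the first 20 bases are upstream of the join and 121 bases follow. The join of Acbd4, an acyl-CoA binding protein (121 bases, chr11:103103900-103104020), has 19 bases upstream and 23 after it. That of Gbp9, a guanylate-binding protein (103 bases, chr5:105081651-105081753), has 18 and 24. That of Rchy1, a ubiquitin ligase (116 bases, chr5:91957535-91957650), has 18 and 42. That of Psmg4, a chaperone of proteasome assembly (76 bases, chr13:34166061-34166136, the middle one of 3 exons), has 18 and 75.
Gak exon: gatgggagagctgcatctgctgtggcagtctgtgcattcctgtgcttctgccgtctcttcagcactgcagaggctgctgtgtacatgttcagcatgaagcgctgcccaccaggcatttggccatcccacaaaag
Gak join: tgtgttgtgcattgcatggtacatTGA
Slc6a6 exon: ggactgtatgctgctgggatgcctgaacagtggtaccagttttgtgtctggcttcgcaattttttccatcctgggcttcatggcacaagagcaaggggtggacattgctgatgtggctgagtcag
Slc6a6 join: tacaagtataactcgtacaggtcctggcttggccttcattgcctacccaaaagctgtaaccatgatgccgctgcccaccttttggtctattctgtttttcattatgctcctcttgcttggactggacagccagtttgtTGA
Acbd4 join: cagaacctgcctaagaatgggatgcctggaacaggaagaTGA
Gbp9 join: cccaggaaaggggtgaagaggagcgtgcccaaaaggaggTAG
Rchy1 join: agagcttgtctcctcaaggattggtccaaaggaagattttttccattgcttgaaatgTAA
Psmg4 join: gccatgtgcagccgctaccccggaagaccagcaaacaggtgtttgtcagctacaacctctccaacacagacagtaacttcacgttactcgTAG

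The 12075 exons were for the most part constant exons of coding sequence that are skipped rarely. Their median length was 116 bases (quartiles 83 and 159), and 50.6% left a remainder of 1. By exon and intron lengths all but 220 could be placed in GENCODE M21, and 8644 of the 12075 were wholly coding in a protein-coding transcript, 1450 partly coding, 576 in the 5′ untranslated region, 125 in the 3′ untranslated region and 852 in noncoding transcripts. A further 208 were coding exons of transcripts annotated for decay. For 8425 coding exons the frame could be followed, and without the exon the first stop lay more than 50 bases ahead of the last exon junction in 77.9% of them.

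In WT Ctr the median inclusion level of these 12075 exons was 0.992, and 72.9% of them had a level of at least 0.95, against 67.4% of the 8232 frame-preserving exons tested. Levels between 0.05 and 0.95 were found in 19.6% of frame-shifting and 25.2% of frame-preserving exons, a difference that was not tested. The annotation classes spread more widely, also untested: 85.4% of coding frame-shifting exons were at or above 0.95, 50.4% of partly coding ones and 22.2% of those in the 5′ untranslated region, which had a median of 0.328. P635L Ctr gave nearly the same values, with a median of 0.989 and 72.5% of exons at 0.95 or above.

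**Figure D1:**
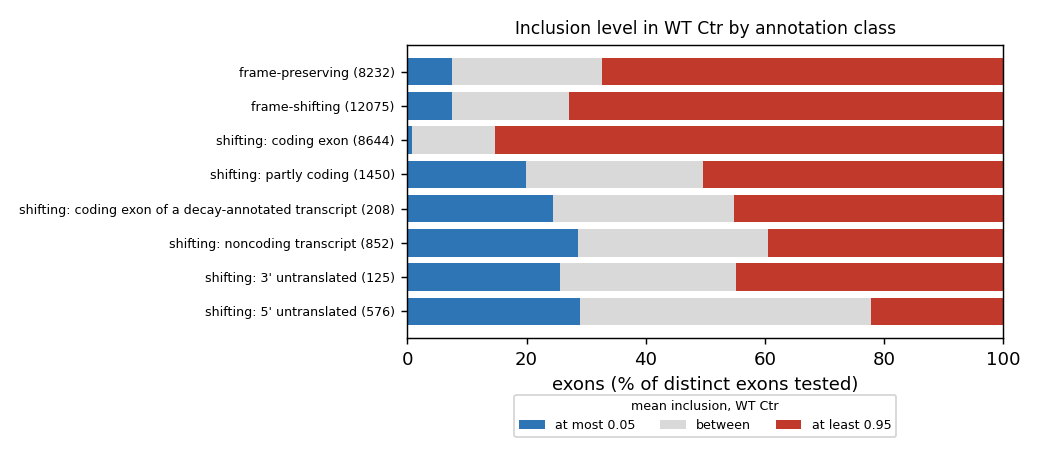
Percent of distinct exons (horizontal axis) whose mean inclusion level over 4 WT Ctr libraries was at most 0.05, between, or at least 0.95, for frame-preserving and frame-shifting exons and for the annotation classes of the latter, with the number of exons in brackets. Coding frame-shifting exons reach 85.4% in the highest class and exons of the 5′ untranslated region 22.2%.

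Between P635L Ctr and WT Ctr, the comparison that asks what the mutation does to splicing, few frame-shifting exons changed beyond the spread of 4 libraries. A change was called where edgeR's quasi-likelihood test on inclusion and skipping reads gave a Benjamini-Hochberg adjusted p under 0.05 over all event types and the mean inclusion level moved by at least 0.1. By this test 8 of 14037 events changed, in 6 genes, where 0.156% of the 34696 events of all types did. The 8 are 0.057% of the members. Frame-preserving exons had 35 of 9645 (0.363%) and microexons of 27 bases or less 4 of 410 (0.976%). At an unadjusted p under 0.05 the shares were alike, 8.77% of frame-shifting and 9.46% of frame-preserving events. None of these differences between kinds of exon was tested.

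The authors' deposited tables carry rMATS FDR values, which call far more. With an FDR under 0.05 and the same difference of 0.1, 292 frame-shifting events in 249 genes were called, 2.08% of those tested, where the share over all event types was 2.52%. Of the 292, 108 were higher and 184 lower in P635L Ctr, where the 873 calls of all event types were 364 higher and 509 lower. In 87 of the 292 the levels of the 4 P635L Ctr libraries did not overlap those of the 4 WT Ctr libraries, and 80 had at least 50 reads in both groups. These are 29.8% and 27.4% of the calls, where among the 873 calls of all event types the shares were 37.7% and 32.5%. All 8 events of the edgeR test were among the 292. Coding exons made up 127 of the 233 distinct exons called in this way when the event with the most reads stood for each exon, and 92 of the 127 were lower in P635L Ctr. They are 71.6% of the exons tested, and 1.47% of them were called against 1.93% of all frame-shifting exons. In WT Ctr 85.4% of all coding exons tested, called or not, were already at 0.95 or above, from where a rise of 0.1 is not possible. The part of this limit in the direction of the calls was not tested. Depth differed with the groups as well: a frame-shifting event had a median of 74 reads per library in WT Ctr and 145.5 in P635L Ctr, and the part of depth in these counts was not tested.

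**Figure D2:**
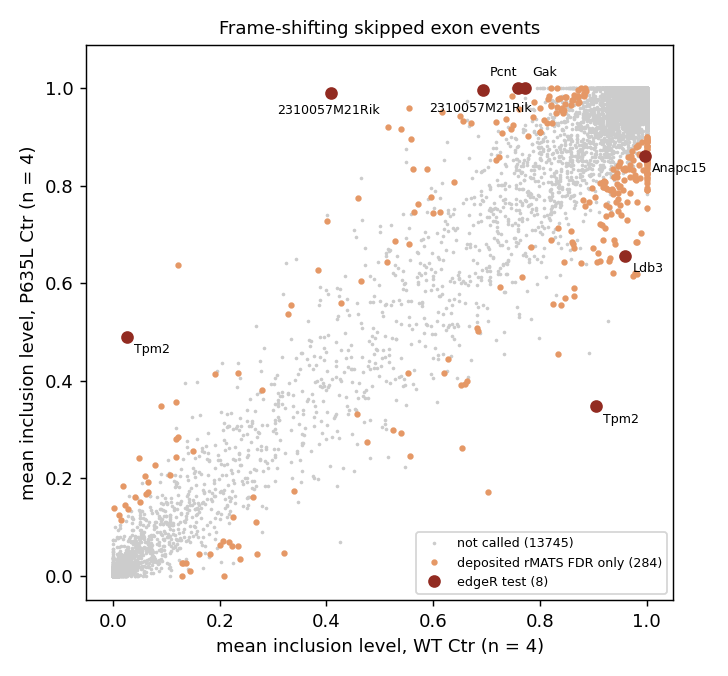
Mean inclusion level in P635L Ctr (vertical axis) against WT Ctr (horizontal axis), 4 libraries each, for the 14037 frame-shifting events tested; large dots passed the edgeR test, small coloured dots only the deposited rMATS FDR. The 2 Tpm2 exons lie on opposite sides of the diagonal, and of the 8 events only the 2411-base exon of 2310057M21Rik moved farther, by 0.582.

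**Figure D3:**
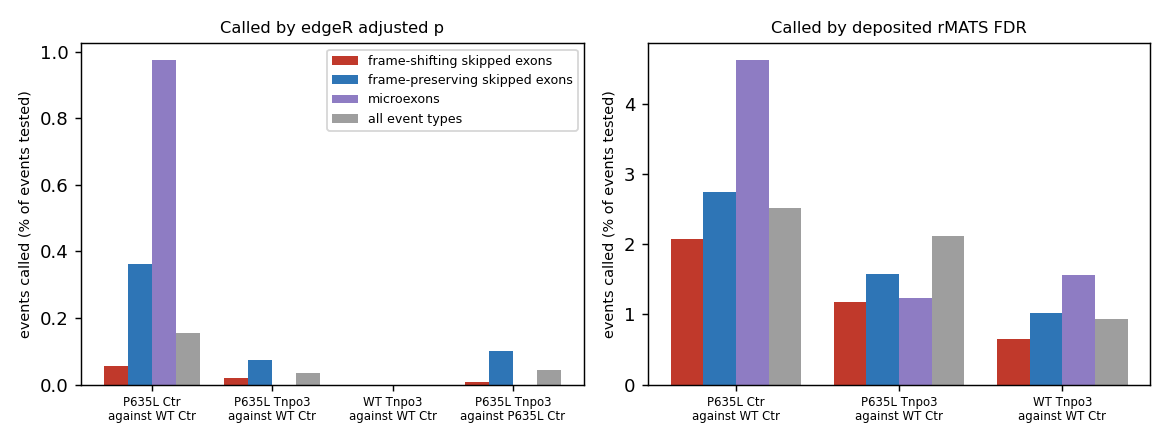
Percent of tested events called (vertical axis, from 0) in each comparison, by the edgeR test on the left and by the deposited rMATS FDR on the right, for frame-shifting exons, frame-preserving exons, microexons and all event types. In P635L Ctr against WT Ctr the frame-shifting bar stands at 0.057% by edgeR and 2.08% by rMATS, below the bar of frame-preserving exons in both panels.

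The balance between the 2 exons of Tpm2 shifted. The first exon was kept at levels of 0.918, 0.798, 0.964 and 0.941 in WT Ctr and of 0.399, 0.354, 0.281 and 0.358 in P635L Ctr, in the order in which the table lists the libraries. The groups lay far apart. The difference was -0.557 (edgeR adjusted p = 1.67e-08). The two-sided exact permutation p was 0.029, the smallest that 4 against 4 libraries allow. Groups without overlap always give this value. The largest called rises and falls were named only where the groups do not overlap, so it adds no support here or for Ldb3. The second exon was at 0.016, 0.073, 0.005 and 0.008 in WT Ctr and at 0.46, 0.5, 0.583 and 0.419 in P635L Ctr, a rise of 0.465 (edgeR adjusted p = 5.64e-10). As uncorrected shares of junction reads the differences were -0.468 for the first exon and 0.576 for the second.

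The skipped form of either event is a read that joins the other exon to a constant neighbour. Reads that skipped both 76-base exons numbered 0, 0, 3 and 0 in WT Ctr and 0, 0, 1 and 0 in P635L Ctr, beside 254 to 704 and 580 to 1472 reads that joined the first exon to its constant neighbours. Replacing one exon by the other leaves the length of the coding sequence as it was. Some reads also joined the 2 exons to each other, a form with 152 bases in place of 76 that does not keep the frame of either exon alone. Their number, derived after the values were seen, was that of an exon's inclusion reads in the event with the other exon as neighbour, less the part also counted between the constant neighbours. It was 83, 119, 66 and 38 in P635L Ctr and 0, 1, 0 and 0 in WT Ctr when taken from the second exon. Taken from the first exon it was 44 to 121 in P635L Ctr and 1 to 17 in WT Ctr. In P635L Tnpo3 it was 1 to 41 from the second exon and 17 to 63 from the first. Among reads joining one of the exons to the constant neighbours, the share of the second was 0.0515 ± 0.0496 (SD, n = 4) in WT Ctr and 0.577 ± 0.0623 in P635L Ctr. In beta-tropomyosin genes the first exon of this pair is known from smooth muscle and other non-striated cells and the second from skeletal muscle.

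The gene itself was also higher in P635L Ctr. Tpm2 stood at 47.6 ± 11.0 CPM (reads scaled to library size; SD, n = 4) in WT Ctr and at 193.9 ± 33.9 in P635L Ctr, which is 2.03 ± 0.26 on the log2 scale (SE), with an edgeR adjusted p of 6.34e-05. Reads on the first exon, which fell in share, were not fewer: their mean per library was 467.2 in WT Ctr and 964.5 in P635L Ctr, while those on the second went from 19.2 to 1306, without correction for depth. The summed CPM of 5 smooth muscle and pericyte markers ranged from 595.8 to 818.7 in WT Ctr and from 628.0 to 744.3 in P635L Ctr, and thus overlapped. The 4 skeletal muscle markers rose from a range of 1.16 to 1.74 to one of 9.70 to 12.8 CPM, with Myh4 under 0.1 in every library. In bulk tissue a change in the cells that make a transcript and a change in each cell's splicing cannot be told apart.

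The exchange was also present in P635L hearts that received Tnpo3 virus. The first exon was at 0.477, 0.478, 0.431 and 0.361 and the second at 0.395, 0.299, 0.4 and 0.419 in P635L Tnpo3. Against WT Ctr both passed the edgeR test (differences of -0.468 and 0.353, adjusted p = 4.20e-11 and 1.61e-15); by limma with precision weights the second missed the threshold (adjusted p = 0.0557). Against P635L Ctr the differences were 0.089 and -0.112 and did not pass (edgeR adjusted p = 0.871 and 0.867). WT Tnpo3 had 0.953, 0.798, 0.958 and 0.91 for the first exon and overlapped WT Ctr (edgeR adjusted p = 0.986).

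The 359-base exon of Ldb3 was the only frame-shifting exon that passed the edgeR test between P635L Tnpo3 and P635L Ctr. It had levels of 0.965, 0.963, 0.968 and 0.943 in WT Ctr and of 0.642, 0.68, 0.627 and 0.676 in P635L Ctr, a difference of -0.304 (edgeR adjusted p = 5.69e-09, exact permutation p = 0.029). In P635L Tnpo3 it stood at 0.919, 0.931, 0.929 and 0.962, apart from every P635L Ctr library. That is 0.279 above P635L Ctr (edgeR adjusted p = 0.00131, exact permutation p = 0.029) and 0.024 below WT Ctr, which did not pass (edgeR adjusted p = 0.674). Uncorrected shares of junction reads differed less, by -0.187 for P635L Ctr against WT Ctr and by 0.174 for P635L Tnpo3 against P635L Ctr. Over the 29396 events of all types shared by the tables, 0.0442% changed between P635L Tnpo3 and P635L Ctr, and the Ldb3 exon was 1 of 11439 frame-shifting events (0.00874%). Fitted among skipped exon events alone, this comparison called 0 frame-shifting exons, so the Ldb3 call rests on the fit over all event types; limma gave it an adjusted p of 0.00407. Marker sums also differed between the same groups. Atrial markers summed to 5139 to 9804 CPM in P635L Ctr and 918.6 to 4512 in P635L Tnpo3, skeletal muscle markers to 9.70 to 12.8 and 2.65 to 6.24, and fibroblast markers to 1476 to 2242 and 1045 to 1694. Cardiomyocyte markers (49500 to 53610 and 51490 to 61340) and smooth muscle markers (628.0 to 744.3 and 624.8 to 668.5) overlapped. Their part in the Ldb3 difference was not tested.

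The skipping reads run from the exon before the 359-base exon to the 23-base exon. They numbered 16, 21, 15 and 26 in WT Ctr and 248, 422, 356 and 367 in P635L Ctr. In P635L Tnpo3 they numbered 33, 25, 42 and 14. Reads that joined the exon before to the 15-base exon directly, and so passed over the 359-base exon and the next 2, stayed at 2 to 4 in WT Ctr, 0 to 14 in P635L Ctr and 1 to 7 in P635L Tnpo3. Inclusion reads of the 204-base exon rose with the skipping, from 32 to 78 per library in WT Ctr to 840 to 1448 in P635L Ctr and 82 to 242 in P635L Tnpo3, measured between the exon before and the 15-base exon. Inclusion reads count the joins on both sides of an exon. Those of the 204-base exon outnumbered the skipping reads in every P635L Ctr library. As they sum 2 joins and the skipping reads count 1, this does not show whether it was used only where the 359-base exon was skipped. Inclusion reads of the 23-base exon, between the exon before and the 204-base exon, lay near the skipping reads. They numbered 15 to 22 in WT Ctr, 275 to 458 in P635L Ctr and 17 to 54 in P635L Tnpo3. Whether the 23-, 204- and 15-base exons replaced the 359-base exon as a set was not tested. The event to the 23-base exon is not listed in the table of WT Tnpo3 and has no value there. The change in Ldb3 gene counts did not pass the test (727.3 ± 126.3 CPM in WT Ctr and 815.6 ± 38.5 in P635L Ctr, SD, n = 4; log2 fold change 0.17 ± 0.18, edgeR adjusted p = 0.576).

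Apart from Tpm2 and Ldb3, the exons called in P635L Ctr against WT Ctr came from genes outside the sarcomere and had fewer reads. In Pcnt, which encodes the centrosome scaffold pericentrin, a coding exon of 245 bases (exon 34 of 42) was at 0.611, 0.728, 0.884 and 0.816 in WT Ctr and at 1 in all 4 P635L Ctr libraries, a rise of 0.24 (edgeR adjusted p = 0.00564). The Gak exon was at 0.907, 0.643, 0.857 and 0.684 in WT Ctr and at 1 in each P635L Ctr and each P635L Tnpo3 library, with a mean of only 33.8 reads in WT Ctr. Its rise of 0.227 had an edgeR adjusted p of 0.0440, which was lost, at 0.0954 to 0.160, without any one of 6 of the 8 libraries: listed libraries 2 and 4 of WT Ctr and each of P635L Ctr. No skipping read of Gak or Pcnt was seen in P635L Ctr.

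The gene 2310057M21Rik gave 2 of the 8 events, from overlapping exons of 2411 and 452 bases that end at the same base and share their skipping reads. The shorter, coding in the annotation, was at 0.568, 0.727, 0.706 and 0.774 in WT Ctr and at 1, 0.985, 1 and 1 in P635L Ctr (edgeR adjusted p = 0.0127). In P635L Tnpo3 it was at 0.87, 0.698, 0.822 and 0.625, below every P635L Ctr library, with an edgeR adjusted p of 0.140 against P635L Ctr. DESeq2 called this difference and that of the longer exon (adjusted p = 0.0182 and 0.0234). Weighted limma called neither (adjusted p = 0.165 and 0.247). The longer rose by 0.582 from a mean of 14.8 reads in WT Ctr (edgeR adjusted p = 0.0186). Its call was lost without listed library 1 of WT Ctr (0.0680) or listed library 1, 3 or 4 of P635L Ctr (0.0720, 0.0945 and 0.0776), and that of the shorter without listed library 1 or 4 of P635L Ctr (0.0526 and 0.0780).

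Anapc15, a subunit of the anaphase-promoting complex, was the only other exon to fall. This partly coding exon of 85 bases was at 1, 1, 0.987 and 1 in WT Ctr and at 0.866, 0.875, 0.886 and 0.823 in P635L Ctr, a difference of -0.134 (edgeR adjusted p = 0.0178). It was at 0.987, 0.991, 0.987 and 0.952 in P635L Tnpo3, above each P635L Ctr library but with an edgeR adjusted p of 0.226. Its call was lost without listed library 1, 2 or 4 of WT Ctr (0.0972, 0.0658 and 0.0669). The calls of the Tpm2, Ldb3 and Pcnt exons held without each of the 8 libraries in turn. By limma with precision weights, the Pcnt, Gak, Anapc15 and 2411-base exons missed the threshold (adjusted p = 0.152, 0.176, 0.0850 and 0.0978).

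**Figure D4:**
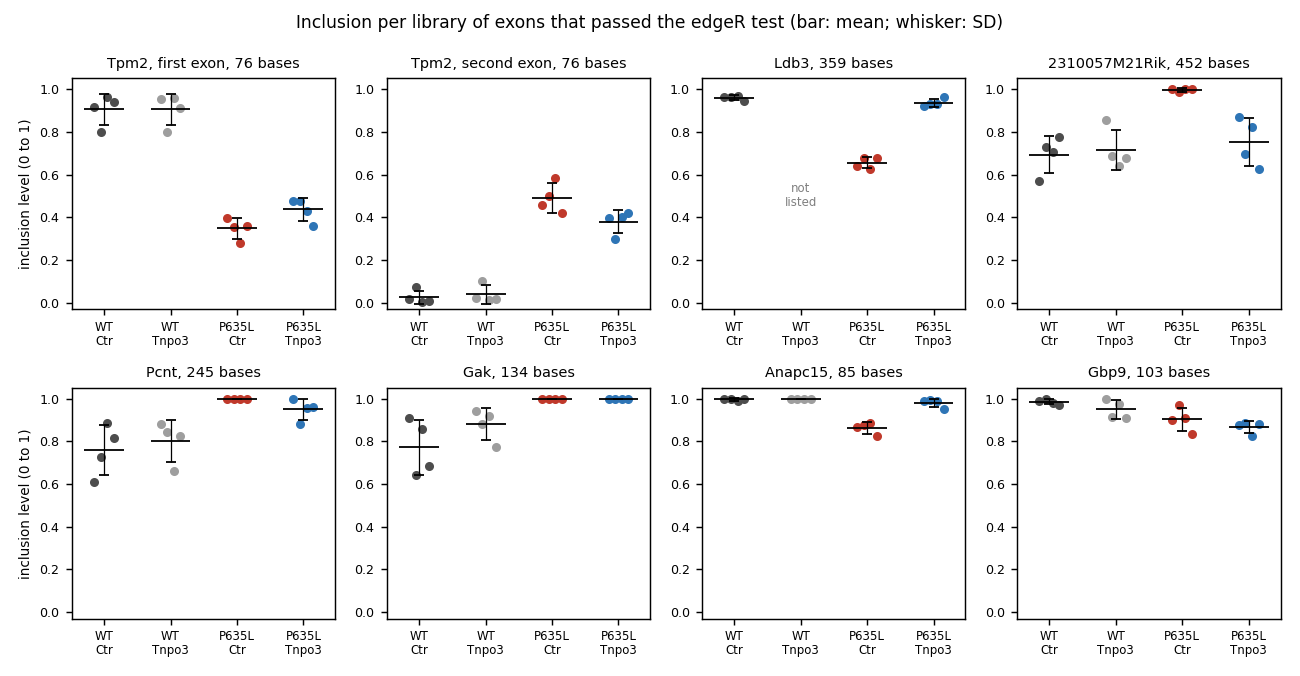
Inclusion level per library (vertical axis, 0 to 1) in the 4 groups for exons that passed the edgeR test in any comparison; points are libraries, the bar is the mean of 4 and the whisker the SD. Tpm2 and Ldb3 show the 2 groups of P635L hearts apart from WT or, for Ldb3, only P635L Ctr apart; Gbp9 passed in P635L Tnpo3 against WT Ctr only.

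Because the edgeR test called few exons, a second set was chosen from the deposited FDR after the values had been seen: exons with an FDR under 0.05, a difference of at least 0.1, groups that do not overlap and at least 50 reads in both, up to 8 in each direction. Their FDR is the authors' and none of those described next passed the edgeR test. Among those that were higher, the Psmg4 exon had levels of 0.389, 0.417, 0.359 and 0.375 in WT Ctr and 0.609, 0.605, 0.686 and 0.614 in P635L Ctr, a difference of 0.243 over a mean of 426 and 934.8 reads (edgeR adjusted p = 0.134; limma adjusted p = 0.00393). In P635L Tnpo3 it was at 0.465, 0.45, 0.42 and 0.502, between the 2 groups and apart from both, and in WT Tnpo3 at 0.32, 0.404, 0.313 and 0.325. Without this exon the stop of Psmg4 falls within 50 bases of or after the last junction, unlike in most coding members.

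Ktn1, which encodes the kinesin-binding protein kinectin, had a partly coding 116-base exon at 0.413 to 0.501 in WT Ctr and 0.547 to 0.659 in P635L Ctr, with 0.389 to 0.517 in P635L Tnpo3 and 0.433 to 0.484 in WT Tnpo3. Only P635L Ctr stood apart (difference from WT Ctr 0.14, edgeR adjusted p = 0.641). The Acbd4 exon went from 0.457 to 0.695 in WT Ctr to 0.791 to 0.88 in P635L Ctr, a difference of 0.247 (edgeR adjusted p = 0.43), and Acbd4 was also higher in gene counts (log2 fold change 0.70 ± 0.13, SE, edgeR adjusted p = 0.0014). A 179-base exon of the kinase anchor gene Pakap (0.232 to 0.45 against 0.504 to 0.563) and a 47-base exon of the noncoding gene Mir99ahg (0.58 to 0.624 against 0.683 to 0.788) were also higher. A 280-base exon of 2210408F21Rik, not placed in the annotation, differed by 0.183.

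Among those that were lower, Slc6a6 had 1, 0.943, 0.947 and 0.961 in WT Ctr and 0.8, 0.795, 0.724 and 0.753 in P635L Ctr (difference -0.195, edgeR adjusted p = 0.331, limma adjusted p = 0.0285). Its P635L Tnpo3 libraries were spread over 0.964, 0.952, 0.791 and 0.517 and overlapped both groups. An 86-base exon of Actn4, a non-muscle alpha-actinin, was at 0.728 to 0.962 in WT Ctr and 0.483 to 0.686 in P635L Ctr (difference -0.29, edgeR adjusted p = 0.321), and at 0.435 to 0.78 in P635L Tnpo3. The remaining differences were in Mtmr14, a phosphoinositide phosphatase (-0.265), Parp6, an ADP-ribosyltransferase (-0.225), Ntan1, an amidase of N-terminal asparagine (-0.203), and Bcas3 (-0.182). Their edgeR adjusted p ranged from 0.598 to 0.661. Of these genes Ntan1 was higher in counts (log2 fold change 0.42 ± 0.11, SE, edgeR adjusted p = 0.0197).

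**Figure D5:**
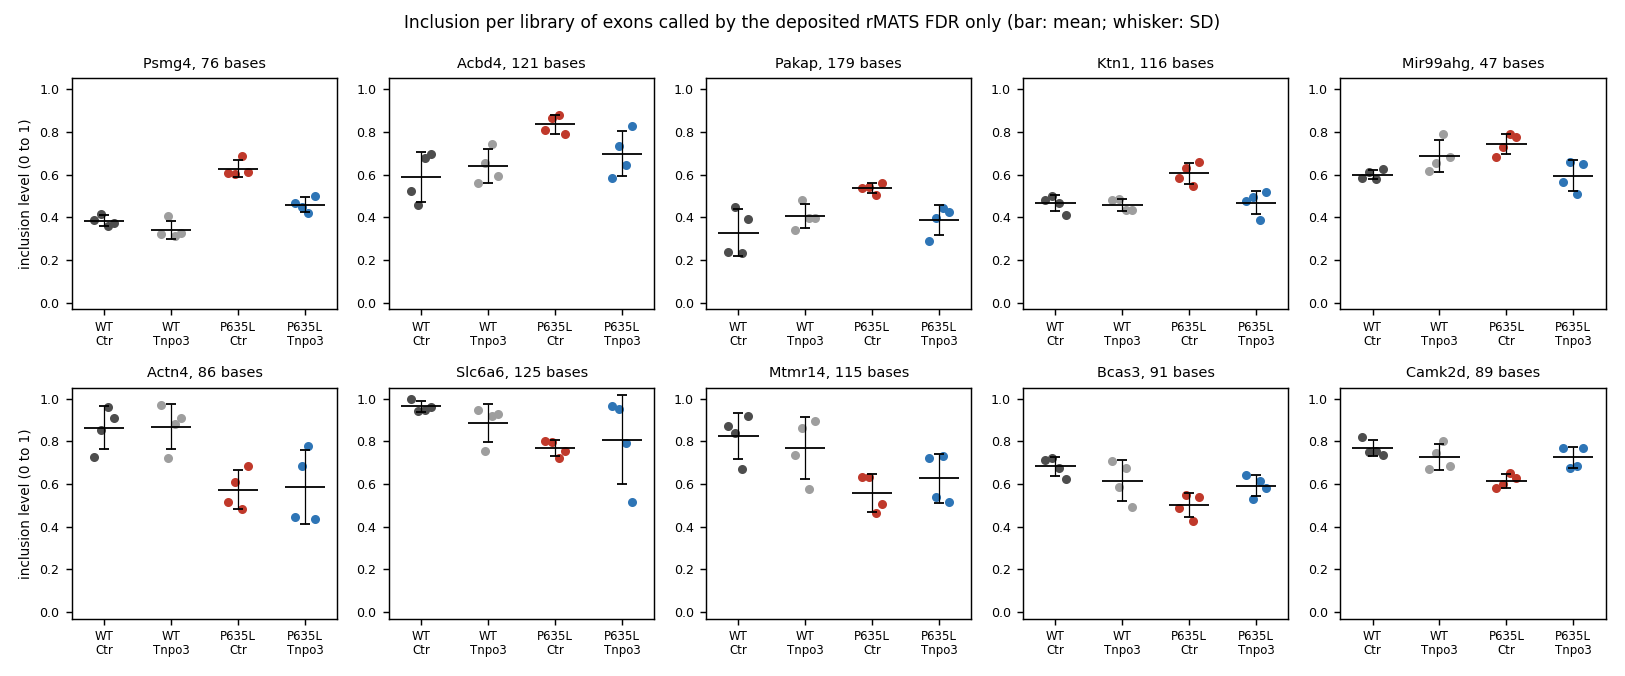
Inclusion level per library (vertical axis, 0 to 1) in the 4 groups for 10 exons called in P635L Ctr against WT Ctr by the deposited rMATS FDR and not by the edgeR test; points are libraries, the bar is the mean of 4 and the whisker the SD. P635L Ctr and WT Ctr do not overlap in any panel, by the way 9 of the exons were chosen (Camk2d is the exon of largest difference in its gene list).

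In P635L Tnpo3 against WT Ctr, 3 of 14071 frame-shifting events passed the edgeR test (0.0213%, against 0.0348% of all 34526 events): the 2 Tpm2 exons and the Gbp9 exon. Gbp9, an interferon-inducible GTPase, had levels of 0.989, 1, 0.981 and 0.971 in WT Ctr and 0.874, 0.885, 0.824 and 0.881 in P635L Tnpo3, a difference of -0.119 (edgeR adjusted p = 0.00144; limma adjusted p = 0.0565, which missed the threshold). P635L Ctr, at 0.898, 0.968, 0.91 and 0.832, also lay below all WT Ctr libraries, by 0.083, which is under the minimum of 0.1 (edgeR adjusted p = 0.120). The deposited FDR called 166 events (1.18%, against 2.12% of all types), 51 higher and 115 lower, where the 732 calls of all types were 387 higher and 345 lower. Of those without overlap and with at least 50 reads, the largest positive differences after the second Tpm2 exon were in Tial1, an RNA-binding protein (0.05 to 0.158 against 0.24 to 0.469), Tmem234 (0.015 to 0.111 against 0.165 to 0.254) and Ankrd16 (0.12 to 0.21 against 0.259 to 0.314). Exons of the sialyltransferase gene St6galnac6, the calcineurin gene Ppp3cc and the noncoding form of Abhd1 were lower by 0.181, 0.163 and 0.153 (edgeR adjusted p = 0.674, 0.656 and 0.0979). The St6galnac6 exon was also 0.277 lower in P635L Tnpo3 (0.585, 0.645, 0.596 and 0.629) than in P635L Ctr (0.862, 0.892, 0.919 and 0.891), without overlap. This difference passed in limma (adjusted p = 0.0105) and DESeq2 (adjusted p = 0.00293) and not in edgeR (adjusted p = 0.226). Abhd1 itself was lower in gene counts in P635L Tnpo3 than in WT Ctr (0.353 and 2.43 CPM, log2 fold change -2.77 ± 0.61, SE, edgeR adjusted p = 0.0170).

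Tnpo3 virus in wild-type hearts changed no frame-shifting exon by the edgeR test. Of 12649 events 0 passed, as did 0% of all 31791 events, and DESeq2 and limma also called 0. An unadjusted edgeR p under 0.05 was found for 806 events (6.37%), where the share over all event types was 5.34%. The deposited FDR called 83 (0.656%, against 0.941% of all types), of which 13 (15.7%) had groups that do not overlap and 9 (10.8%) at least 50 reads, against 23.4% and 13.4% of the 299 calls of all types. Those that met both were Gmppa and Rchy1. Gmppa, a subunit in GDP-mannose synthesis, had an exon in its 5′ untranslated region at 0.28, 0.361, 0.41 and 0.381 in WT Ctr and 0.08, 0.236, 0.172 and 0.246 in WT Tnpo3. The Rchy1 exon was at 0.894 to 0.978 in WT Ctr and at 0.723 to 0.872 in WT Tnpo3, and also lower in P635L Ctr (0.776 to 0.831) and P635L Tnpo3 (0.804 to 0.815). These 3 comparisons share the 4 WT Ctr libraries, so their differences are not independent. Whether the virus acted differently in the 2 genotypes was tested as an interaction over the 4 groups: of 9760 frame-shifting events listed for all 4 groups, 0 passed in edgeR, with 579 (5.93%) at an unadjusted p under 0.05. Over the 25479 events of all types 2 passed and 5.31% had such a p. The Ldb3 event is not among them.

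The gene carried by the virus was checked in every group. Tnpo3 stood at 44.9 ± 3.29 CPM in WT Ctr and 44.5 ± 2.72 in P635L Ctr, and at 320.5 ± 126.2 in WT Tnpo3 and 464.4 ± 213.7 in P635L Tnpo3 (SD, n = 4; log2 fold changes 2.84 and 3.38 within genotype, edgeR adjusted p = 0.000814 and 1.49e-05). Rbm20 did not differ between groups (224.3 to 244.7 CPM on average). Total gene counts ran from 28493249 to 85922669 per library. In 3 libraries, all of WT mice, 1 gene held over 10% of counts. Cardiomyocyte markers summed to 68420 to 81640 CPM in WT Ctr and 49500 to 53610 in P635L Ctr, fibroblast markers to 908.4 to 1556 and 1476 to 2242, and atrial markers to 150.5 to 410.4 and 5139 to 9804. Endothelial markers (890.1 to 1035 and 812.0 to 936.8), macrophage markers (155.0 to 440.0 and 136.9 to 178.8) and lymphocyte markers (1.32 to 23.7 and 3.95 to 7.04) overlapped. The part of these shifts in the splicing differences was not tested.

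Frame-shifting exons of muscle genes and of the splicing machinery were counted by list in P635L Ctr against WT Ctr. Over all events tested, 0.156% passed the edgeR test, 2.52% the deposited FDR and 7.57% an unadjusted p under 0.05, and the lists' counts stand against these shares. Of 39 RBM20 targets 31 had a tested member, and of their 118 events the edgeR test called 1 (Ldb3, 0.85%) and the deposited FDR 3 (2.54%), in Ldb3, Camk2d and Ablim1, while 16.9% had an unadjusted p under 0.05. The median size of the difference in this list was 0.003, against 0.01 over all frame-shifting events and 0.013 over all events tested. In the sarcomere and Z-disc list 3 of 166 events passed the edgeR test (1.81%), those of Tpm2 and Ldb3, and 4 the deposited FDR (2.41%), Fhl2 being the further gene, with a median size of 0.001. The calcium handling and ion channel list had 0 of 73 by edgeR and 8 (11.0%) at an unadjusted p under 0.05. Its largest difference was in the 89-base exon of Camk2d, the main CaM kinase of heart muscle, at 0.821, 0.752, 0.755 and 0.737 in WT Ctr and 0.579, 0.598, 0.65 and 0.63 in P635L Ctr. This is -0.152 (edgeR adjusted p = 0.657), with 0.67 to 0.801 in WT Tnpo3 and 0.676 to 0.77 in P635L Tnpo3.

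No frame-shifting exon of the regulators themselves passed the edgeR test, in lists so short that the share over all events would give less than 1 call in each. In SR proteins and hnRNPs this was 0 of 66 events (3, or 4.5%, at an unadjusted p under 0.05), in other muscle splicing regulators 0 of 136 (8, or 5.9%), in decay factors 0 of 34 (4, or 11.8%) and in nuclear import genes 0 of 19 (2, or 10.5%). The deposited FDR called 1, 4, 0 and 1 of them (1.52%, 2.94%, 0% and 5.26%), in Srsf11, in Luc7l2, Rbm39, Son and Tial1, and in Ipo11. The largest difference in SR proteins was in the 268-base exon of Srsf6, a poison exon type that many SR genes carry to limit their own level: 0.151 to 0.467 in WT Ctr, 0.127 to 0.286 in P635L Ctr and 0.353 to 0.561 in P635L Tnpo3. The difference between P635L Tnpo3 and P635L Ctr was 0.252 without overlap (exact permutation p = 0.029, edgeR adjusted p = 0.807). In Ipo11, an importin, a 215-base exon was at 0.211 to 0.362 in WT Ctr and 0.063 to 0.143 in P635L Ctr (-0.156, edgeR adjusted p = 0.655). The largest difference in decay factors was -0.07, in Smg6, and that of other regulators was -0.434 in Rbfox2, from 15.5 reads in WT Ctr with no level in 1 library.

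In the other comparisons the edgeR test called 0.0348%, 0% and 0.0442% of all events. In P635L Tnpo3 against WT Ctr only the sarcomere list had calls (2 of 198, or 1.01%, both Tpm2), in WT Tnpo3 against WT Ctr no list had any, and in P635L Tnpo3 against P635L Ctr the Ldb3 exon was the call of both the RBM20 target list (1 of 97) and the sarcomere list (1 of 136). The lists of SR proteins, other regulators, calcium handling, decay and import had 0 in each.

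Gene counts of the hosts were compared in the same groups. Of the 6 genes with an edgeR-called exon in P635L Ctr against WT Ctr, 2 changed in counts, Tpm2 and Anapc15 (log2 fold change 0.56, edgeR adjusted p = 0.0426), both higher; over all 18662 genes tested 14.2% changed. The count fell to 1 when only the 8 libraries compared were fitted, with the replicate number as a block, without the 3 libraries in which 1 gene holds over 10% of counts, and without replicate 1, 2 or 3 of P635L Ctr or 3 or 4 of WT Ctr. Of 248 tested genes with an exon called by the deposited FDR, 45 changed (18.1%), 23 higher and 22 lower. Where a coding exon was kept less and its loss alone would put a stop more than 50 bases ahead of the last junction, 14 of 75 genes changed. Of these 8 were higher and 6 lower, and the 75 had a median log2 fold change of 0.03, against -0.05 over all genes. Where such an exon was kept more, 4 of 24 changed and the median was -0.06. The first set holds Tpm2 and Ldb3 and the second Tpm2 again, although other exons can replace theirs without a change of frame. Between P635L Tnpo3 and P635L Ctr 3.88% of genes changed, and Ldb3, the host of the 1 called exon, did not (log2 fold change -0.50, edgeR adjusted p = 0.131).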

How the data were processed

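Left ventricle RNA of 16 mice was sequenced as poly(A) libraries with a directional kit, per the labels. The submitters' processing notes name STAR 2.7.9a, featureCounts 2.0.6, DESeq2 and GRCm39; the version and settings of rMATS are not given in the sources used here. The deposited rMATS tables hold, per the file headers, comma-joined inclusion and skipping junction read counts and inclusion levels for 4 libraries a group, with a p-value and an FDR by the authors. The deposited gene table holds raw counts. The order of libraries within an rMATS cell is not stated, so they are named by listed position. The library flags of the gene counts could not be carried over to them.

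Repeated lines were dropped. Each event entered edgeR 4.0.16 (R 4.3.3) as inclusion and skipping reads with a library effect, over all event types with a mean of at least 10 reads in both groups. Calls needed a Benjamini-Hochberg adjusted p under 0.05 and a difference of at least 0.1. Genes were fitted with edgeR over all 4 groups (TMM). limma 3.58.1 (pseudocount 0.5) and DESeq2 1.42.0 were alternatives, and the fits were tested on simulated data. The 8 libraries of a comparison allow 70 assignments in the exact permutation test. P-values measure the spread between 4 mice a group, and read counts cover counting error only.

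Exons named were the largest called rises and falls without overlap, up to 12 each way in P635L Ctr against WT Ctr and 5 elsewhere, with 1 per gene (further called exons were named after their values were seen), and the largest difference of each gene list. Members, lists and tests were chosen with earlier results of these data known. Exons were matched to GENCODE M21 (GRCm38) by gene, exon length and intron lengths, since no GRCm39 genome was used here; no coordinate was converted. Same-numbered gene libraries correlated at -0.31 to 0.62 (median -0.05), so the numbers were not taken as pairs. Tests on the 3 tables share the WT Ctr reads, identical in 99.95% of events listed in both tables of a pair. The sequence of the 3 Ldb3 exons is not reported here.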

Additional observations from a re-analysis of the deposited data

Results flagged for a closer look

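Of 131 sets of 4 inclusion levels behind the exons named, 13 had 1 library whose gap to the rest exceeded Dixon's 95% critical value; chance flags about 1 in 20. In 4 of them the other 3 libraries were all at 1 and the remaining one a little lower: the 2411-base exon of 2310057M21Rik at 0.966 and the 452-base exon at 0.985 (both P635L Ctr), Anapc15 at 0.987 and Smg6 at 0.939 (both WT Ctr). Listed library 2 was high for the second Tpm2 exon in WT Ctr, at 0.073 with the others at 0.005 to 0.016, and listed library 2 of WT Tnpo3 was high for the same exon, at 0.104 with the others at 0.014 to 0.023. Psmg4 had 0.404 in 1 WT Tnpo3 library (others 0.313 to 0.325) and 0.686 in 1 P635L Ctr library (others 0.605 to 0.614). Anapc15 was at 0.952 in 1 P635L Tnpo3 library (others 0.987 to 0.991). Single WT Tnpo3 libraries stood apart for Slc6a6 at 0.755 (others 0.917 to 0.946), St6galnac6 at 0.919 (others 0.715 to 0.746) and Abhd1 at 0.773 (others 0.961 to 0.986), and 1 P635L Ctr library for Abhd1 at 0.529 (others 0.895 to 0.949).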

How the results depend on the processing

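The 8 events of P635L Ctr against WT Ctr became 17 with no minimum difference and 292 with the deposited rMATS FDR; the other settings, limma, DESeq2, other read minimums, a minimum difference of 0.2, 1 event per exon, a fit of skipped exons alone and a fit of all 4 groups among them, gave 6 to 10. Leaving out each library in turn gave 6 to 11. The 3 of P635L Tnpo3 against WT Ctr became 6 with no minimum difference, 1 with weighted limma, 0 with unweighted limma and 166 with the deposited FDR, and leaving out each library gave 3 to 4. The 0 of WT Tnpo3 against WT Ctr stayed at 0 in every setting but the deposited FDR, which gave 83, and leaving out each library gave 0 to 0. The 1 of P635L Tnpo3 against P635L Ctr became 2 with weighted limma, 5 with DESeq2 and 0 when only skipped exon events were fitted, and leaving out each library gave 1 to 1. The fit of all 4 groups also gave 1, but the Ldb3 event has no value in WT Tnpo3 and is not in that fit. The 1 there is thus another event. For P635L Ctr against WT Ctr the fit of all 4 groups lacks the Ldb3 event too. Of the 2 host genes that changed in P635L Ctr, 1 remained in number when only the 8 libraries compared were fitted, with the replicate block, and without the 3 libraries in which 1 gene holds over 10% of counts; leaving out each library gave 1 to 3, with 1 without replicate 1, 2 or 3 of P635L Ctr or 3 or 4 of WT Ctr. The 0 of P635L Tnpo3 against P635L Ctr became 1 with only the 8 libraries and 1 without those 3, and leaving out each library gave 0 to 0; the replicate block changed no other call. For splicing no paired analysis was possible because the listed libraries carry no number. Why these counts move was not tested. For the 12 named calls of single exons, 99 of the results under other settings kept the call and 21 lost it. For the 25 named differences that the edgeR test did not call, 247 stayed uncalled and 3 gained a call. These results include the uncorrected share of junction reads, which keeps the edgeR adjusted p of the main test. That setting could lose a call only through its difference and could not gain one. None of these reversed. Depth limits exons with few reads, where a level of 1 says only that no skipping read was seen.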
